A study of Mus musculus with 117 samples.

Results

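NZO/HlLtJ and WSB/EiJ hepatocytes were compared state by state, an obese strain against a lean one. NZO/HlLtJ is an inbred strain known for polygenic obesity and a tendency to type 2 diabetes, and WSB/EiJ is an inbred strain derived from wild house mice and known for leanness. The members are the autosomal stretches of 1000 bp or more that were in an active state in one of the pair and in a silent state in the other. There were 1455 of them, 725 active in NZO/HlLtJ and silent in WSB/EiJ and 730 the other way round, called on 12313718 bins of 200 bp on chromosomes 1 to 19.

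The cells were hepatocytes, which carry out most of the liver's metabolism, of female mice 12 weeks old. The series holds 117 chromatin immunoprecipitation sequencing (ChIP-seq) libraries of 9 inbred strains, and 26 of them belong to this pair, 13 per strain. Each strain has H3K4me1, H3K4me3, H3K27ac and H3K27me3 from 3 mice, and 1 input library sequenced without an antibody. The labels name no treatment, transgene or deletion in either strain. The other 7 strains serve here only as a scale: the classical strains A/J, 129S1/SvImJ, NOD/ShiLtJ, DBA/2J and C57BL/6J and the wild-derived strains PWK/PhJ and CAST/EiJ.

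The deposited files hold 1 segmentation per strain, in which each stretch of the genome carries 1 of 14 numbered chromatin states. No file splits it by mouse, so no spread between mice, no test and no p-value can be given, and every difference below is a difference between 2 segmentations. The sequencing depth behind each segmentation is unknown. A bin without reads, for example where a strain's own sequence differs from the reference, and a bin of silent chromatin cannot be told apart.

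A chromatin state is a recurring combination of histone marks. As background, H3K4me3 is known to mark the starts of active genes, H3K4me1 marks enhancers, H3K27ac marks enhancers and starts in use, and H3K27me3 is laid down by the Polycomb complexes on genes that are kept off. In liver, enhancers in use are known to lie near genes for fat, glucose, bile acid and drug metabolism, and their set differs with diet, hormones and genotype. The files do not state which marks make up which state, so the states are described by where they lie.

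States 1, 2 and 3 are called active and states 13 and 14 silent. State 3 was the state of gene starts: 55.1% of its bins in NZO/HlLtJ and 59.96% in WSB/EiJ lay within 1 kb of a gene start. State 2 was rare there, with 0.849% and 1.00% of its bins, although 71.4% and 67.2% of them lay inside gene spans. State 1 stood between these, with 13.3% and 16.9% of its bins near a start. States 13 and 14 had 1.89% and 0.56% of their bins near a start in NZO/HlLtJ, against 1.56% of all autosomal bins.

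The hepatocyte label was checked on gene lists. Active states covered 69.5% of the bins of 19 hepatocyte identity genes in NZO/HlLtJ and 72.6% in WSB/EiJ, and each of the 19 had active bins in both. Over 20 developmental regulators, genes known as Polycomb targets, active states covered 0.822% and 0.965%, while state 13 covered 68.5% and 73.2%. Active states covered 2.35% and 1.79% of the bins of 14 Kupffer cell and leukocyte markers, 7.05% and 7.56% at 10 endothelial markers, and 1.36% and 1.09% at 12 stellate and bile duct markers.

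Few gene starts were among the members, and the promoters at 6 such starts are printed here because a segment covered the start itself, active in one strain and silent in the other. They were chosen after their values had been seen, and other starts not printed had more of their window switched. Each line gives the 250 bases before the start, 5′ to 3′ on the gene's strand, from RefSeq (GRCm38.p6). Capitals mark a match to 1 of the 6 motifs named after the sequences. The first 4 starts lay in a segment active in NZO/HlLtJ and the last 2 in a segment active in WSB/EiJ.
Cfhr3: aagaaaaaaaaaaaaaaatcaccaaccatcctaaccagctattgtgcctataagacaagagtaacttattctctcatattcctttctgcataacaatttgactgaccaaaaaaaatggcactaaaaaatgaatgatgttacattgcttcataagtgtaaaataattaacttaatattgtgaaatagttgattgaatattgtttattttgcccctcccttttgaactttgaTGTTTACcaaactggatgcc
Sult2a8: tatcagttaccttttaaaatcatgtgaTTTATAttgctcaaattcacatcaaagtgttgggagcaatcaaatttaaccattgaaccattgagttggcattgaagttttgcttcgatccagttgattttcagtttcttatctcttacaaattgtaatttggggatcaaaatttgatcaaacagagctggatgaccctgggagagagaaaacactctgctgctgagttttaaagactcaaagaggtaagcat
Spp1: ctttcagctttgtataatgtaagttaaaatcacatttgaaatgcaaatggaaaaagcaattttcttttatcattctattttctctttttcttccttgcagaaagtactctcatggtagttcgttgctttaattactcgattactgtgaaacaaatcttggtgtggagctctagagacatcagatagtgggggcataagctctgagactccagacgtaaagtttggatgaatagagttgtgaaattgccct
Mrap2: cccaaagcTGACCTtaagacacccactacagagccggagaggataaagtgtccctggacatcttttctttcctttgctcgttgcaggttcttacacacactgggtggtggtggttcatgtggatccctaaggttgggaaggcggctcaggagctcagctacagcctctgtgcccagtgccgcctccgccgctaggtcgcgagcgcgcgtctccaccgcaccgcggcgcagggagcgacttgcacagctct
Abca4: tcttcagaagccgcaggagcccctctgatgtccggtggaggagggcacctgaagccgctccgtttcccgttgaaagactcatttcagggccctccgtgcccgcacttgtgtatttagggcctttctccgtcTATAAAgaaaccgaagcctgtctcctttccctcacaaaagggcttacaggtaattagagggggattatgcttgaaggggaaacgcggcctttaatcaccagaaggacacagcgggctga
Galnt9: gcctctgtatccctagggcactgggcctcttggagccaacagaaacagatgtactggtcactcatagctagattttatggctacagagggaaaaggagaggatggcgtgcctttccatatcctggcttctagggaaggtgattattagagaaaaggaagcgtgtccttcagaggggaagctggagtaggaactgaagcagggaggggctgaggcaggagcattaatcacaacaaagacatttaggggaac
These are the reference sequences, since the strains' own sequences were not used here. The positions are chr1:139661007-139661256 (minus strand) for Cfhr3, chr7:14446588-14446837 (minus) for Sult2a8, chr5:104435942-104436191 (plus) for Spp1, chr9:87144056-87144305 (plus) for Mrap2, chr3:122044210-122044459 (plus) for Abca4 and chr5:110603255-110603504 (plus) for Galnt9.

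Both strands were searched for the TATA box TATAAA, the E-box CACGTG, the nuclear receptor motif AGGTCA, the HNF4 site CAAAGTCCA, the forkhead site TGTTTAC and the C/EBP site TTGCGCAA. The forkhead motif stood in the Cfhr3 promoter, beginning 20 bases before the start, and 3.13% of 25748 autosomal promoters of the same length hold it. TATAAA stood in the Sult2a8 promoter on the opposite strand, 223 bases before the start, and in the Abca4 promoter, 119 bases before the start, against 12.98% of all promoters. The Mrap2 promoter held AGGTCA on the opposite strand, 242 bases before the start, a motif found in 13.9% of all promoters. No match was found at Spp1 and Galnt9. The E-box, the HNF4 site and the C/EBP site, which matched none of these 6, were found in 6.04%, 0.392% and 0.163% of all promoters. A match describes the letters in this window and nothing more.

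The first question was how far the pair differed in all 14 states. The same state was found in 85.3% of the autosomal bins, and Cohen's kappa, the agreement beyond that given by the state frequencies, was 0.634. The differing bins, 14.7% of the total, spanned 363 Mb. Exchanges between states 13 and 14 made up 52.7% of them, and exchanges between states 4 and 14 made up 13.4%. Direct exchanges between active and silent states were rare: 16806 bins were active in NZO/HlLtJ and silent in WSB/EiJ, and 16770 bins the reverse.

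Both strains had nearly the same active length, 5.21% of the bins in NZO/HlLtJ and 5.19% in WSB/EiJ, but divided it differently. State 1 covered 2.81% in NZO/HlLtJ and 2.37% in WSB/EiJ. State 2 covered 1.93% in NZO/HlLtJ, the lowest of the 9 strains, and 2.45% in WSB/EiJ. State 3 covered 0.466% and 0.364%, the highest and the lowest of the 9 strains. The shift between states 1 and 2 was uneven: 64282 bins were state 1 in NZO/HlLtJ and state 2 in WSB/EiJ, and 11613 bins were the reverse, a ratio of 5.54. Among the 36 strain pairs, each taken in its larger direction, this ratio ranged from 1.00 to 9.96 with a median of 2.08, and the pair ranked 3.

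**Figure D1:**
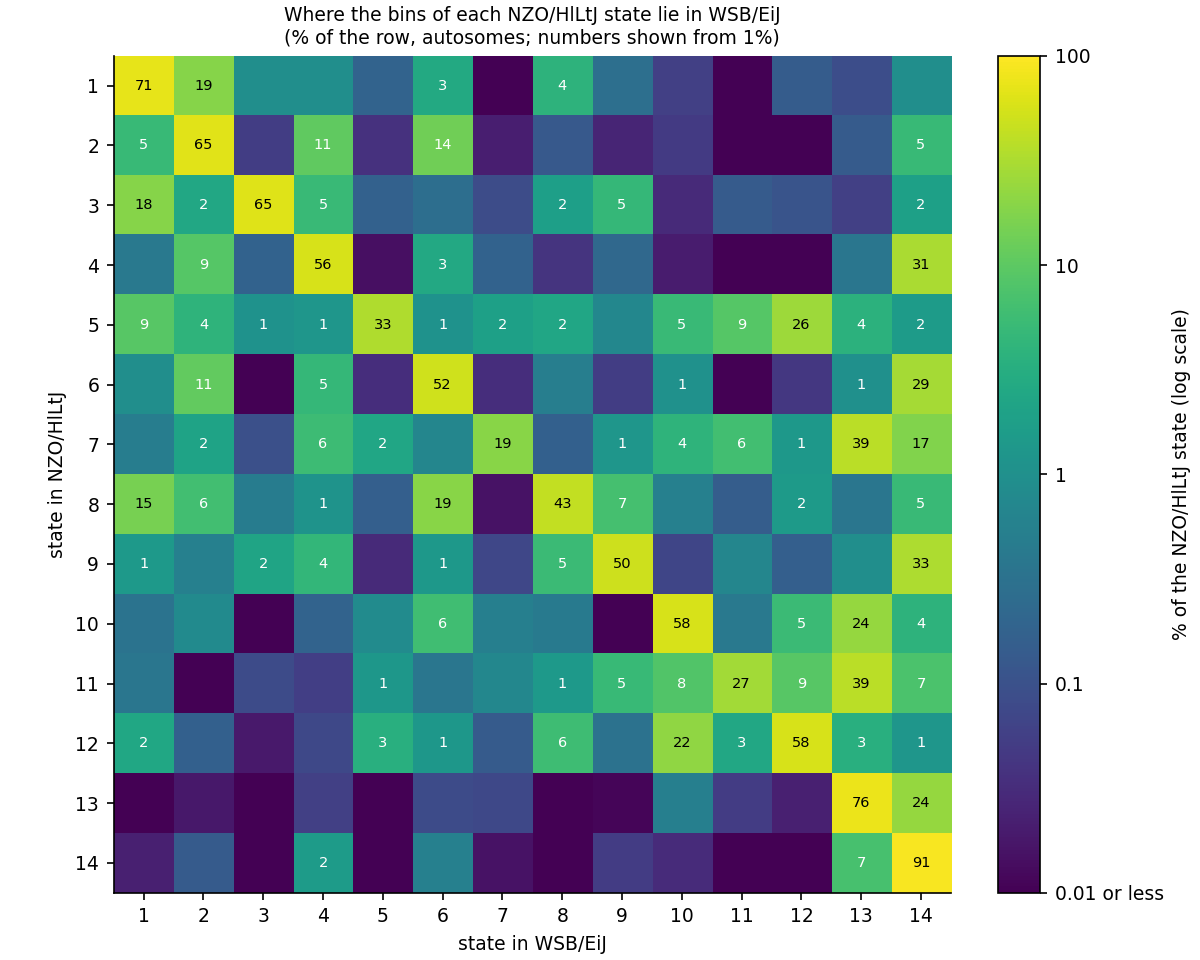
The 14 by 14 table of states. Rows are the states in NZO/HlLtJ, columns the states in WSB/EiJ, and colour and numbers give the percentage of each row's bins on a log scale. State 14 kept 90.6% of its bins and state 1 kept 71.2%, with 18.6% of state 1 lying in state 2 of WSB/EiJ.

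The silent states were divided differently too. State 13 covered 10.01% of the bins in NZO/HlLtJ and 13.1% in WSB/EiJ, the highest of the 9 strains, and state 14 covered 77.8% and 74.8%, the latter the lowest of the 9. Bins in state 14 of NZO/HlLtJ and state 13 of WSB/EiJ numbered 666672, against 290580 the other way, a ratio of 2.29. State 4 covered 2.40% and 3.02%, and 152489 bins were silent state 14 in NZO/HlLtJ and state 4 in WSB/EiJ, against 90876 in reverse. State 9 went the other way, with 0.924% in NZO/HlLtJ and 0.598% in WSB/EiJ. The table of states by percentage of each row shows these exchanges.

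Set among the strain pairs, these 2 strains were neither the most alike nor the least. The kappa of 0.634 was number 19 of 36 from the highest, with a range from 0.474 to 0.699. The 1455 segments were number 19 from the fewest, with a range from 731 to 4545. The 15 pairs that hold CAST/EiJ or PWK/PhJ, strains of other mouse subspecies, all had 3434 segments or more. Among the other 21 pairs the count ranged from 731 to 1512 with a median of 1088, and NZO/HlLtJ against WSB/EiJ was number 19 of 21. WSB/EiJ against DBA/2J, 129S1/SvImJ and C57BL/6J gave 1512, 1464 and 1449 segments, and NZO/HlLtJ against the same 3 strains gave 1065, 1099 and 1011.

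**Figure D2:**
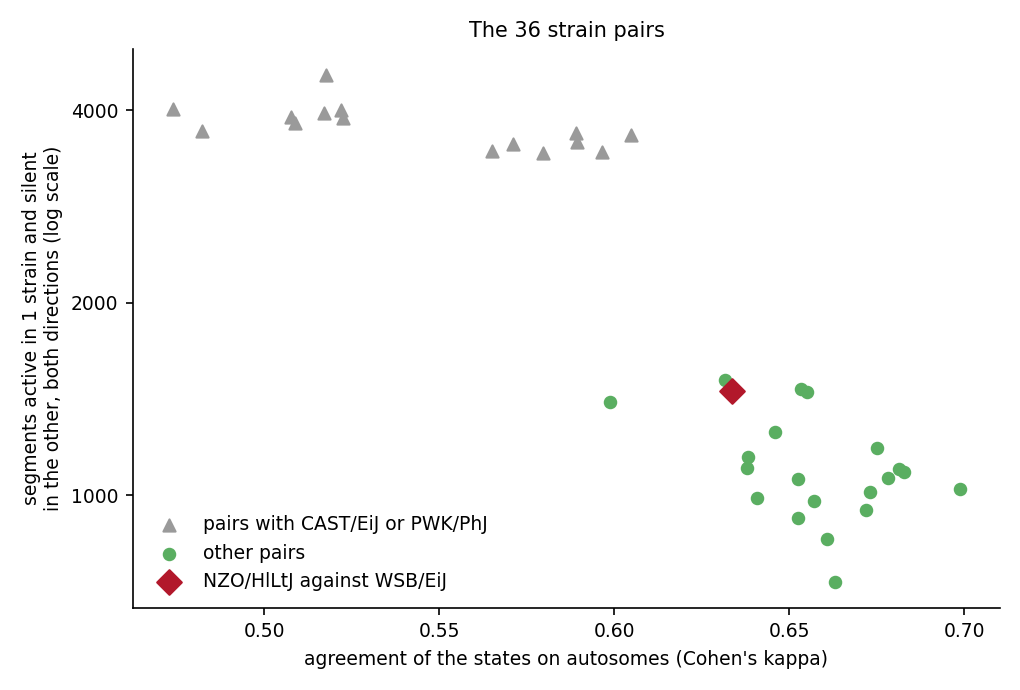
The 36 strain pairs by kappa (x axis) and by the number of segments active in one strain and silent in the other, both directions added (y axis, log scale). Each point is 1 pair; NZO/HlLtJ against WSB/EiJ lies at 0.634 and 1455, among the highest counts of the 21 pairs without CAST/EiJ and PWK/PhJ.

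The segments were then described one direction at a time. The 725 segments active in NZO/HlLtJ covered 1.13 Mb, with a median of 1400 bp and a longest of 8400 bp. The 730 active in WSB/EiJ covered 1.10 Mb, with a median of 1200 bp and a longest of 9800 bp. At the threshold, 223 segments in each direction were exactly 1000 bp long, and 427 and 396 stretches of 800 bp fell just short. Segments of 2000 bp or more numbered 151 and 130.

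Segments of both directions held more of state 2 than active chromatin as a whole. It made up 60.3% of the bins active in NZO/HlLtJ and 70.7% of those active in WSB/EiJ, against 37.1% and 47.3% of all active bins of these strains. State 3 made up 4.05% of the segment bins in NZO/HlLtJ against 8.96% of all its active bins, and 6.42% against 7.02% in WSB/EiJ. Only 2.20% and 1.49% of the segment bins lay within 1 kb of a gene start. The share was 12.4% of all active bins in each strain and 1.56% of all autosomal bins. On the silent side, state 14 made up 92.8% and 97.0% of the bins. In 475 segments (65.5%) active in NZO/HlLtJ and 493 (67.5%) active in WSB/EiJ, the silent strain had no active bin within 2 kb of the segment.

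The directions differed in where their segments lay. Gene spans held 61.9% of the segment bins active in NZO/HlLtJ and 45.3% of those active in WSB/EiJ. They held 70.5% and 67.9% of all active bins and 40.1% of all autosomal bins. A segment touched a protein-coding gene, its span or 1 kb to either side, in 472 cases (65.1%) for NZO/HlLtJ and 351 (48.1%) for WSB/EiJ. The segments per 10 Mb ranged over the autosomes from 1.43 to 5.06 for NZO/HlLtJ, lowest on chromosome 16 and highest on chromosome 9, and from 2.02 to 4.33 for WSB/EiJ, highest on chromosome 7.

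The other 7 strains were then read at each segment. A strain was counted as active where at least 50% of a segment's bins were active. Where NZO/HlLtJ was active and WSB/EiJ silent, 4 or more of the other 7 strains were active in 269 segments (37.1%) and silent in 219 (30.2%). Where WSB/EiJ was active and NZO/HlLtJ silent, most others were active in 182 (24.9%) and silent in 337 (46.2%). The remaining 237 and 211 segments had no majority on either side. None of the 7 was active in 107 segments of NZO/HlLtJ and in 232 of WSB/EiJ, while all 7 were active in 43 and 17. The count of 4 of 7 is a strict one: without 1 of the 7 strains at a time, and still with 4 needed, the share with most others active fell between 25.8% and 33.7% for NZO/HlLtJ and between 19.2% and 22.3% for WSB/EiJ.

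Strain by strain, 129S1/SvImJ was active at 48.6%, C57BL/6J at 48.1% and DBA/2J at 47.2% of the segments active in NZO/HlLtJ, and CAST/EiJ at 31.0%. At the segments active in WSB/EiJ the range was from 24.7% in PWK/PhJ to 35.8% in 129S1/SvImJ. Over all 9 strains, 63 segments of 1000 bp or more were active in WSB/EiJ alone with every other strain silent, and 19 in NZO/HlLtJ alone. The 7 other strains ranged from 10 in NOD/ShiLtJ to 377 in CAST/EiJ, so that WSB/EiJ came after CAST/EiJ and PWK/PhJ, and NZO/HlLtJ was number 7 of 9. Segments silent in 1 strain and active in the other 8 numbered 27 for WSB/EiJ and 9 for NZO/HlLtJ.

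**Figure D3:**
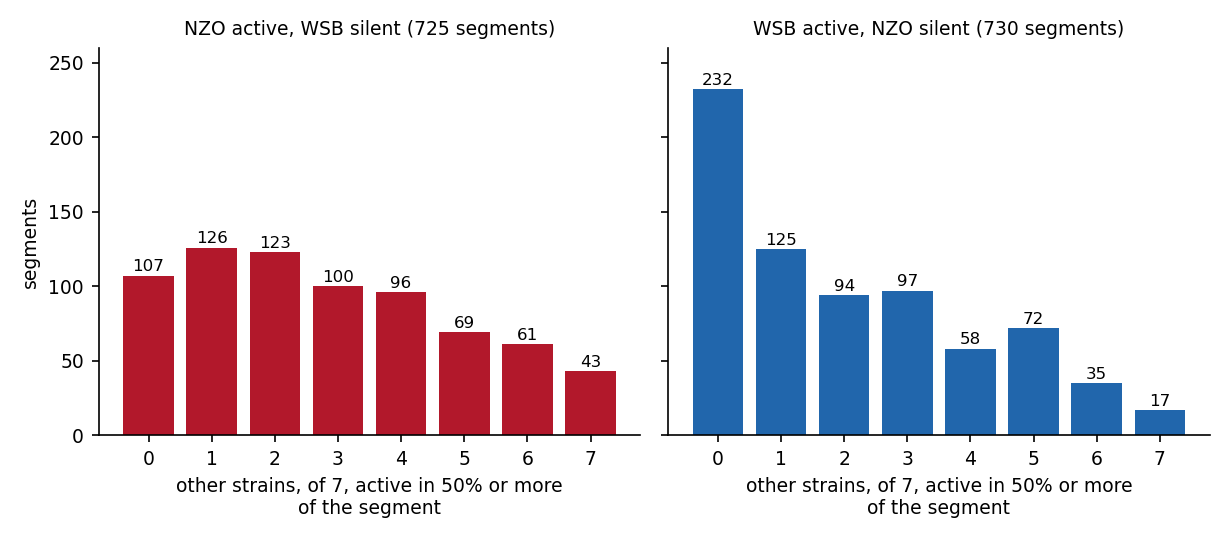
Segments by the number of the other 7 strains active in at least 50% of the segment (x axis), with the number of segments on the y axis and above each bar. At 0 other strains there are 107 segments active in NZO/HlLtJ and 232 active in WSB/EiJ.

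Genes were read against the share of all genes touched. Of 20665 autosomal protein-coding genes, 363 (1.76%) were touched by a segment active in NZO/HlLtJ and silent in WSB/EiJ, and 280 (1.35%) by one in the other direction. The 9 metabolic lists hold 214 autosomal genes. Segments active in NZO/HlLtJ touched 6 of them (2.80%) and segments active in WSB/EiJ touched 3 (1.402%), close to the shares of all genes. Median spans were 24028 bp for the listed genes and 17491 bp for all genes.

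Ghr, the growth hormone receptor, had the most switched length among the listed genes active in NZO/HlLtJ. The segment, 3000 bp at chr15:3448801-3451800, lay inside the gene, 130042 bp from the nearest start, in state 1 in NZO/HlLtJ and state 14 in WSB/EiJ. All 7 other strains were active across the whole of it, so WSB/EiJ stood alone. Over the span and 1 kb to either side, active states covered 131800 bp in NZO/HlLtJ and 116000 bp in WSB/EiJ, with 98800 to 144000 bp in the other strains. The difference of 15800 bp was thus longer than the switched segment, which made up 3000 bp of it.

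Scd1, stearoyl-CoA desaturase, which makes monounsaturated fatty acids and is known for its tie to body fat, came next. Its segment, 2800 bp at chr19:44398201-44401000 inside the gene span, was state 2 in NZO/HlLtJ and state 14 in WSB/EiJ. Active states covered 15000 bp of the gene window in NZO/HlLtJ and 7400 bp in WSB/EiJ. The other strains fell on either side, with 15400 bp in 129S1/SvImJ, C57BL/6J and PWK/PhJ, 13200 bp in DBA/2J, 7800 bp in CAST/EiJ and NOD/ShiLtJ, and 5600 bp in A/J. WSB/EiJ had state 4 over 4200 bp of this window and NZO/HlLtJ over 400 bp.

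Foxo1, a transcription factor restrained by insulin that drives genes of glucose production, held an 1800 bp segment at chr3:52292601-52294400, 24264 bp from its start. Each of the other 7 strains was active there, from 77.8% of the segment in A/J to all of it in the other 6, and WSB/EiJ was again the strain that stood alone. The total active length at Foxo1 hardly differed, 32600 bp in NZO/HlLtJ and 31200 bp in WSB/EiJ.

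The remaining 3 were short. Bdh1, which interconverts the ketone bodies, held 1200 bp at chr16:31452401-31453600, with 4 other strains active. Baat, which joins bile acids to taurine or glycine, held 1000 bp at chr4:49496201-49497200, with 2 other strains active. Cideb, a lipid droplet protein of lipoprotein loading, held 1000 bp at chr14:55753001-55754000, which lay in the 1 kb beside the gene and inside the neighbouring gene Nop9, and no other strain was active in it.

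Cyp39a1, an oxysterol hydroxylase of bile acid synthesis, had the most switched length among the listed genes in the WSB/EiJ direction. It held 3 segments of 2800, 4000 and 1400 bp, the first at chr17:43669001-43671800 and the second at chr17:43672201-43676200. The active length of the gene window was 600 bp in NZO/HlLtJ, 1400 bp in PWK/PhJ, 8000 bp in DBA/2J, 8800 bp in A/J, 10400 bp in NOD/ShiLtJ, 11000 bp in C57BL/6J, 12000 bp in 129S1/SvImJ, 12400 bp in WSB/EiJ and 16800 bp in CAST/EiJ. NZO/HlLtJ and PWK/PhJ thus had the lowest values, and the next was 8000 bp in DBA/2J. State 14 covered 82000 of 86400 bp in NZO/HlLtJ and 71200 of 86400 bp in WSB/EiJ, so most of the window was state 14 in both.

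Igfbp2, a liver-secreted binding protein of insulin-like growth factors known to respond to leptin, held an 1800 bp segment at chr1:72828401-72830200, 3014 bp from its nearest start. The segment was fully active in 129S1/SvImJ, A/J and C57BL/6J and active in 11.1% of its bins in NOD/ShiLtJ. The active length of the window was 13800 bp in NZO/HlLtJ, 17400 bp in NOD/ShiLtJ, 18600 bp in PWK/PhJ, 19600 bp in DBA/2J, 20600 bp in CAST/EiJ, 22200 bp in C57BL/6J, 23000 bp in WSB/EiJ, 23400 bp in A/J and 24000 bp in 129S1/SvImJ. NZO/HlLtJ was the lowest of the 9 strains. State 2 covered 4200 bp of the window in NZO/HlLtJ and 13800 bp in WSB/EiJ, while state 4 covered 14200 and 7200 bp.

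Sult1e1, estrogen sulfotransferase, held 1000 bp at chr5:87586201-87587200, active in WSB/EiJ and in none of the other 7 strains. Its active length was 5200 bp in NZO/HlLtJ and 11600 bp in WSB/EiJ, with 600 to 8400 bp in the other strains.

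**Figure D4:**
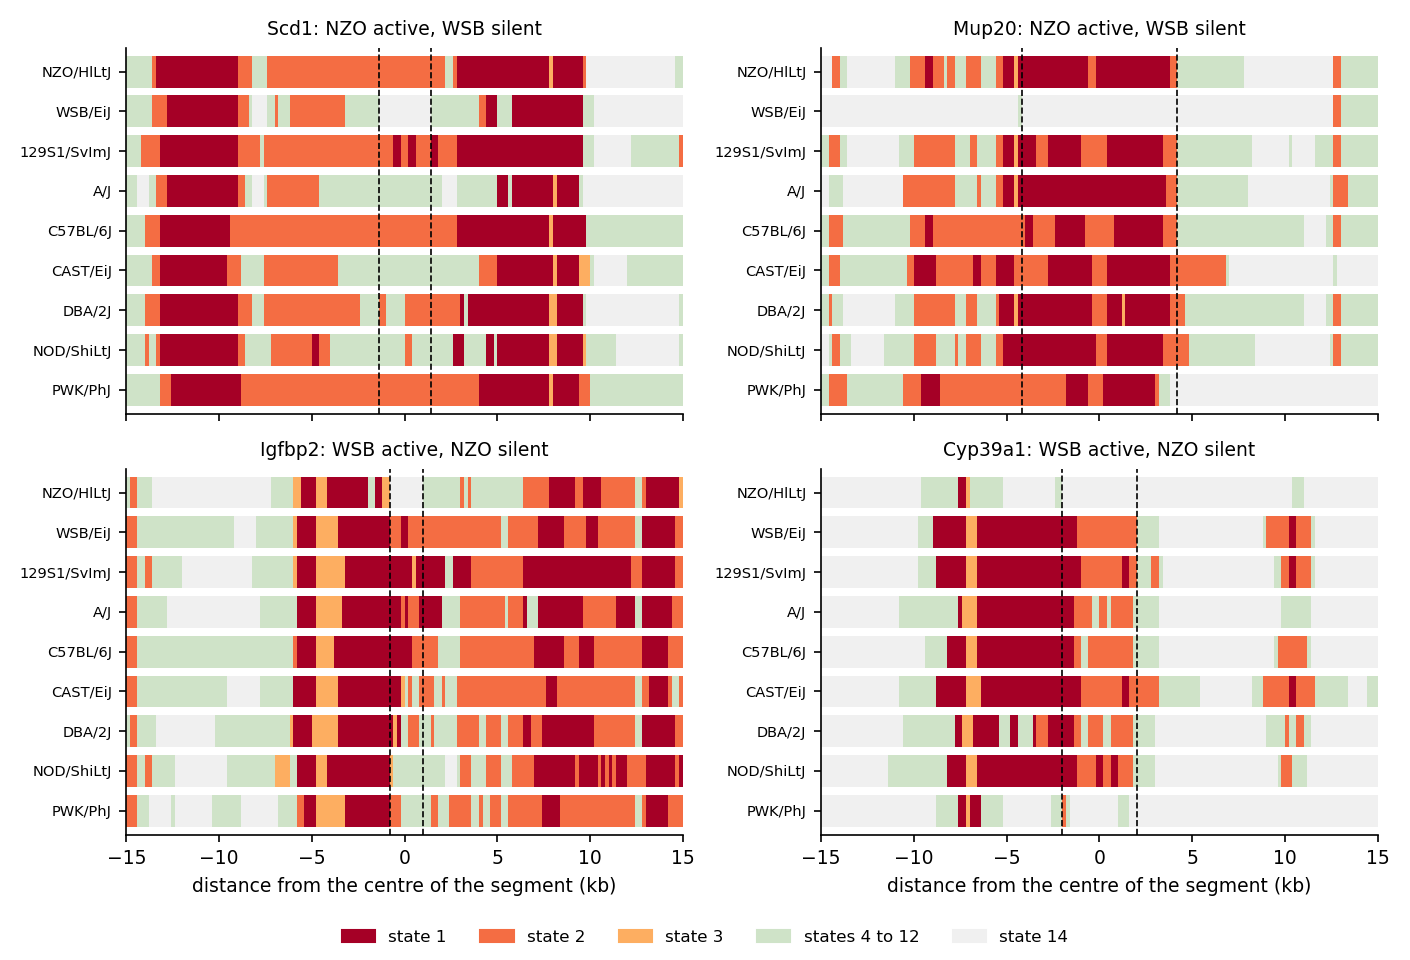
States of the 9 strains around the longest segment at Scd1, Mup20, Igfbp2 and Cyp39a1, by distance from the segment's centre in kb; dashed lines mark the segment and colours the states. NZO/HlLtJ and WSB/EiJ are the top rows. WSB/EiJ alone is silent at Mup20, and at Cyp39a1 NZO/HlLtJ is silent with PWK/PhJ nearly so.

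The segments are strict, so the active length of each gene window was also compared. Of 13779 genes with active bins in at least 1 of the pair, 11.9% had an active length at least 2000 bp longer in NZO/HlLtJ and 7.6% at least 2000 bp longer in WSB/EiJ. Of 206 metabolic genes, 34 (16.5%) were longer in NZO/HlLtJ and 35 (17.0%) in WSB/EiJ. The listed genes carry more active chromatin than most, so the genes with a mean of 10 kb or more are the nearer scale. Of 2622 such genes, 34.8% were longer in NZO/HlLtJ and 20% in WSB/EiJ. Of 113 such metabolic genes, 26 (23.0%) and 25 (22.1%) were. The even split depends on which states are called active: with states 1 and 3 alone, 54 metabolic genes were longer in NZO/HlLtJ and 15 in WSB/EiJ, and with states 1 to 4 the counts were 57 and 34.

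The lists are read against these shares, which are higher for NZO/HlLtJ over all genes. Of 24 genes of fat synthesis, 7 were longer in NZO/HlLtJ and 3 in WSB/EiJ, and among the 18 with a mean of 10 kb or more these made up 38.9% and 16.7%, near the 34.8% and 20% of all such genes. The 7 were Scd1, Fads2, a desaturase of polyunsaturated fatty acids (31800 against 24600 bp), Elovl5, which lengthens them (49000 against 43400 bp), Me1, malic enzyme (14400 against 10000 bp), Acss2, Lpin1 and Acly. The 3 were Elovl6, a fatty acid elongase (58000 against 65200 bp), Acacb and Mlxipl, the carbohydrate response factor ChREBP (21800 against 24200 bp). NZO/HlLtJ was the highest of the 9 strains at Elovl5, where the next had 48600 bp, and the lowest at Mlxipl, where the next had 22400 bp.

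Of 19 bile acid genes, 6 were longer in NZO/HlLtJ and 3 in WSB/EiJ. Among the 13 with a mean of 10 kb or more, 6 (46.2%) and 2 (15.4%) were, against 34.8% and 20% of all such genes. The list and all genes of that size thus both had more genes longer in NZO/HlLtJ. Nr5a2, a nuclear receptor that regulates bile acid synthesis, covered 89000 bp in NZO/HlLtJ and 77200 bp in WSB/EiJ. Nr1h4, the bile acid receptor FXR, covered 67200 and 59000 bp. Slco1b2, an uptake transporter, covered 26000 and 19000 bp. Beside Cyp39a1, the genes longer in WSB/EiJ were Abcb11, the bile salt export pump (11400 against 19000 bp), and Cyp7b1, another oxysterol hydroxylase (19600 against 24000 bp).

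Of 34 genes of drug and steroid metabolism, 4 (11.8%) were longer in NZO/HlLtJ and 10 (29.4%) in WSB/EiJ, against 11.9% and 7.6% of all genes. Among the 17 with a mean of 10 kb or more, 2 (11.8%) and 7 (41.2%) were, against 34.8% and 20%. With states 1 and 3 alone as active the counts were 7 and 7. The metabolic lists together then had 54 genes longer in NZO/HlLtJ and 15 in WSB/EiJ. The counts in this list were thus even where the lists together had more genes longer in NZO/HlLtJ. The share over all genes was not computed with states 1 and 3 alone. The summed active length of the list was 381600 bp in NZO/HlLtJ and 436600 bp in WSB/EiJ, with 351200 to 405800 bp in the other 7 strains, so WSB/EiJ stood above all 8 others. The largest differences were at Sult2a1, a sulfotransferase of bile acids and steroids (1600 against 14400 bp), Sult3a1, another sulfotransferase (13800 against 24400 bp), Fmo2, a flavin monooxygenase (7200 against 17400 bp), and Cyp3a16, a cytochrome P450 (7400 against 17400 bp). Sult2a1, Sult3a1 and Cyp3a16 are known for higher expression in female than in male mouse liver. The Cyp3a and Sult2a genes lie in clusters of near-identical copies, so their values are uncertain. Cyp3a11, a P450 of the same cluster, went the other way with 22200 bp in NZO/HlLtJ and 14400 bp in WSB/EiJ.

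Of 23 genes of the growth hormone, insulin and leptin list, 4 (17.4%) were longer in each strain, and among the 14 with a mean of 10 kb or more 4 (28.6%) and 3 (21.4%) were, against 34.8% and 20% of all such genes. Ghr, Adipor2, an adiponectin receptor (49800 against 44800 bp), Grb10 and Akt2 were longer in NZO/HlLtJ, and Igfbp2, Stat5b, a transcription factor downstream of the growth hormone receptor (51800 against 55800 bp), Prlr and Socs2 were longer in WSB/EiJ. Of 28 cholesterol and lipoprotein genes, 4 and 6 were longer. Among them Cyp51, a demethylase of cholesterol synthesis, covered 9200 bp in NZO/HlLtJ and 2600 bp in WSB/EiJ, and Hmgcs1, HMG-CoA synthase of the same pathway, covered 5200 and 12000 bp. Of 25 genes of fat oxidation and ketone bodies, 5 and 3 were longer, of 24 genes of glucose and glycogen 3 and 4, and of 23 lipid droplet and fat uptake genes 1 and 1. The shares over all genes were 11.9% and 7.6%. Among genes with a mean of 10 kb or more, the 11 of the cholesterol list had 18.2% and 27.3%. The 13 of fat oxidation had 15.4% and 15.4%, the 16 of glucose 12.5% and 18.8%, and the 8 lipid droplet genes 12.5% and 12.5%. All genes of that size had 34.8% and 20%.

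Of the 10 genes named as obesity or diabetes candidates in NZO crosses, 8 had active bins in the pair. None was at least 2000 bp longer in NZO/HlLtJ, against 11.9% of all genes, and 2 were longer in WSB/EiJ, against 7.6%. Among the 4 with a mean of 10 kb or more, 0 and 2 were, against 34.8% and 20% of all such genes. The 2 were Igfbp2 and Tbc1d1, a regulator of glucose transporter traffic (18400 against 24000 bp). At Zfp69, a zinc finger gene linked to diabetes in these crosses, active states covered 2000 bp in NZO/HlLtJ, the lowest of the 9 strains, and 3400 bp in WSB/EiJ. At Lepr, the leptin receptor, they covered 3000 bp, also the lowest, and 3800 bp, with 4000 to 14000 bp in the other 7 strains. Summed over the list, NZO/HlLtJ had 68400 bp and WSB/EiJ 88000 bp, and the other strains had 77200 to 121600 bp. Ifi202b and Nmur2 had no active bin in any of the 9 strains. At these genes too, silent chromatin and a lack of reads cannot be told apart.

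**Figure D5:**
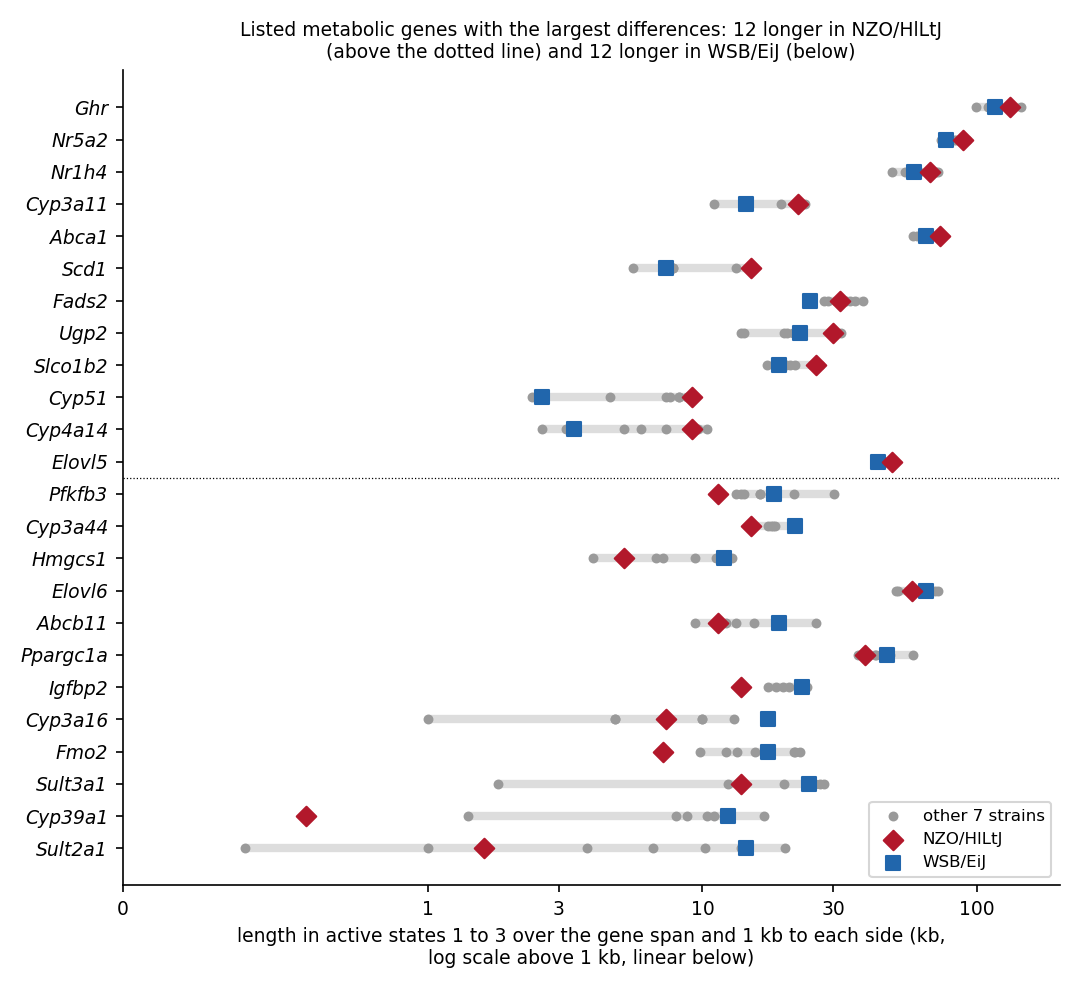
Active length (states 1 to 3) of the gene span and 1 kb to each side, in kb, log scale above 1 kb and linear below, for the listed metabolic genes with the largest differences; diamonds are NZO/HlLtJ, squares WSB/EiJ and grey points the other 7 strains, with a bar over their range. At Abca1, Cyp51 and Elovl5 NZO/HlLtJ lies above every other strain, and at Fads2 and Elovl5 WSB/EiJ lies below every other strain. At Cyp39a1, Igfbp2, Fmo2, Cyp3a44 and Pfkfb3 NZO/HlLtJ lies below every other strain, and at Cyp3a16 WSB/EiJ lies above every other strain. Some gaps are small: 73000 against 72800 bp at Abca1, 49000 against 48600 and 43400 against 43800 bp at Elovl5, and 15000 against 15200 bp at Cyp3a44. The genes were chosen for a large difference within the pair, which favours one of the pair being extreme.

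Genes in no list held the longest switched stretches. The longest segment active in NZO/HlLtJ, 8400 bp at chr4:62021001-62029400, lay in Mup20, a major urinary protein known as the male scent signal darcin. With 2 further segments, 11400 bp of the gene window were switched. All 7 other strains were active there, and the active length was 17200 bp in NZO/HlLtJ, 17400 to 20000 bp in the other 7 strains and 5200 bp in WSB/EiJ. Mup genes form a family of near-identical copies, so this value is uncertain. How reads were shared among copies is not given.

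Cfhr3, described with the gene starts, held a 4400 bp segment at chr1:139658001-139662400. Myom2, a protein of the muscle M-band, held 3 segments with 10800 bp switched. Active length was 11400 bp in NZO/HlLtJ, 10800 bp in 129S1/SvImJ, 14200 bp in PWK/PhJ and 0 in the other 6 strains, WSB/EiJ included. At Srgap3, a GTPase regulator of Slit and Robo signalling, 9400 bp were switched in 4 segments, and the active length was 21600 bp in NZO/HlLtJ and 600 bp in WSB/EiJ. Dclk3, a kinase gene, held 5 segments with 9200 bp switched, and the active length was 25800 bp in NZO/HlLtJ, 6200 bp in WSB/EiJ, 3000 bp in CAST/EiJ and 1400 bp in PWK/PhJ, with 24000 to 29400 bp in the remaining 5.

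Sntg2, a syntrophin gene, held 7 segments with 8600 bp switched, and its active length was 67400 bp in NZO/HlLtJ and 37400 bp in WSB/EiJ. At Ripor2, 8200 bp were switched in 3 segments, with 10800 and 1600 bp active. Tmem108, a transmembrane protein gene, also had 8200 bp switched, in 5 segments, but its total active length differed less, 21000 and 15400 bp. Clstn2, a calsyntenin, held 2 segments with 6800 bp switched, shared among the other strains with PWK/PhJ only. At Sult2a7, a sulfotransferase gene, 8000 bp were switched in 5 segments, none of them active over 50% or more in another strain, and the active length was 13400 bp in NZO/HlLtJ, 1200 bp in WSB/EiJ and at most 3400 bp elsewhere. Sult2a7 too has near-identical neighbours.

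In the other direction, Zfp704, a zinc finger gene, held 7 segments with 10400 bp switched, each of them active over less than 50% in all 7 other strains. Its active length was 58400 bp in WSB/EiJ, 15600 bp in NZO/HlLtJ and 11000 to 28000 bp in the others. Hs3st5, a heparan sulfate sulfotransferase, held 2 segments with 6600 bp switched, with 7000 bp active in WSB/EiJ, 4600 bp in CAST/EiJ, 600 bp in PWK/PhJ and 0 in NZO/HlLtJ and the remaining 5. Il1r1, the interleukin-1 receptor, held 4 segments with 6400 bp switched, and its active length was 18000 bp in NZO/HlLtJ, the lowest of the 9 strains, and 40200 bp in WSB/EiJ, with 25200 to 45400 bp in the others.

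Kcnip4, a potassium channel partner, had 5400 bp switched in 2 segments, with 0 bp active in NZO/HlLtJ, 7800 bp in WSB/EiJ and 2600 to 12800 bp in the others. Mettl7a3, a methyltransferase-like gene, was touched by a single 6000 bp segment at chr15:100344201-100350200, of which 5200 bp lay in its window. Its active length was 800 bp in NZO/HlLtJ, 1000 bp in PWK/PhJ, 1600 bp in NOD/ShiLtJ and 3600 bp in CAST/EiJ, against 7600 bp in WSB/EiJ and 7800 to 9000 bp in the remaining 4. Tmprss2, a serine protease, had 5200 bp switched in 3 segments and an active length of 7400 bp in NZO/HlLtJ, the lowest, and 22600 bp in WSB/EiJ, the highest. Gm4951 and Cndp1, a carnosine dipeptidase, had 5200 and 4800 bp switched, and NZO/HlLtJ had 20000 against 33800 bp and 1800 against 8200 bp active.

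Some of the longest segments touched no gene. In NZO/HlLtJ the next longest, 8200 bp at chr9:87118801-87127000, lay 17236 bp from Mrap2 and was active in 2 other strains. In WSB/EiJ the longest of all, 9800 bp on chromosome 18, lay 12104 bp from Ammecr1l and was active in no other strain. A 4800 bp segment at chr6:142326801-142331600, 3820 bp from the transporter gene Slco1a5, was likewise active in WSB/EiJ and in none of the other 7, and another of 4800 bp at chr16:97536201-97541000, 23682 bp from Tmprss2, was active in all 7 and silent in NZO/HlLtJ alone.

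Segments also came in groups. A window of 1 Mb on chromosome 9 from 99000001 held 12 segments active in NZO/HlLtJ with 24000 bp, over A4gnt, Cldn18 and Dzip1l. PWK/PhJ was active over 70.3% of an average segment there, DBA/2J over 9.14%, and the other 5 strains over none. On chromosome 6 the window from 146000001, over Itpr2, a calcium release channel, held 10 segments active in NZO/HlLtJ and 5 active in WSB/EiJ. The window on chromosome 7 from 39000001 held 8 segments active in WSB/EiJ and no protein-coding gene that they touched.

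Last, gene starts were examined. Of 16457 genes with a start in the promoter table, a segment came within 1 kb of a start in 23 genes (0.14%) for NZO/HlLtJ and in 17 (0.103%) for WSB/EiJ. None of the listed metabolic genes was among them, but Scd1, Cyp39a1 and Baat had no start in that table and could not be counted. Of 20 acute phase and inflammation genes, Saa4 was touched by a segment active in NZO/HlLtJ, 400 bp of it in the gene window, and Lcn2 by one active in WSB/EiJ. The values below are active bp within 1 kb of the start, a window of 2200 bp in whole bins. A segment within 1 kb did not always cover the start or make the window silent. At Cdkn2aipnl, LOC108168726, Pglyrp2 and Trafd1, counted for NZO/HlLtJ, WSB/EiJ had 1200 to 1800 bp active and NZO/HlLtJ 1800 to 2200 bp.

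Cfhr3, a complement factor H related gene, and Gm4788 beside it had 2200 bp active at the start in NZO/HlLtJ and 0 in WSB/EiJ. NOD/ShiLtJ was at 0 as well, and the other 6 strains had 2000 or 2200 bp. The 250 bases before these starts were identical at 79.3% of 271 aligned positions, so the pair may share reads and is uncertain. Slco1c1, a thyroid hormone transporter, showed the same strains at 0, with 1400 bp in NZO/HlLtJ and 1200 to 1800 bp in the others. Sult2a8 had 2200 bp in NZO/HlLtJ, 0 in WSB/EiJ and 800 to 2000 bp in the other 7, so WSB/EiJ alone was at 0, again in a gene with close copies.

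Mrap2, an accessory protein of the melanocortin receptors known for its role in energy balance, had 1200 bp active at its start in NZO/HlLtJ, 1800 bp in DBA/2J and 0 in the other 7 strains, WSB/EiJ included. The silent state there in WSB/EiJ was 13. Spp1, osteopontin, had 1200 bp in NZO/HlLtJ, 0 in WSB/EiJ, DBA/2J and PWK/PhJ, and 400 to 2000 bp in the other 5. Spp1 is also 1 of the 12 stellate and bile duct markers. Summed over that list, 9000 bp were active in NZO/HlLtJ and 7200 bp in WSB/EiJ, with 4600 to 16200 bp in the other strains, 9 of the 12 had no active bin in either of the pair, and Spp1 was the only one touched. The part of other cells in the Spp1 result was not tested.

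Several other starts active in NZO/HlLtJ belong to genes of immune cells. Fcgr3, an Fc receptor, had 2200 bp active in NZO/HlLtJ and 0 in all 8 other strains. Ly6c1 and Ly6c2, surface proteins of monocytes and endothelial cells, had 1800 and 1400 bp in NZO/HlLtJ and 0 in WSB/EiJ, and the other 7 strains ranged from 0 to 1800 bp at Ly6c1 and from 0 to 1400 bp at Ly6c2. The 250 bases before these starts were identical at 44.7% of 264 aligned positions. That is no higher than the 47.2% of 265 positions for Cfhr3 against Sult2a8, genes of different families. Ly6c1 and Ly6c2 still belong to a family of close copies and are uncertain. Pram1 had 1200 bp and Dok3 600 bp in NZO/HlLtJ, against 0 in WSB/EiJ. The other 7 strains ranged from 0 to 1800 bp at Pram1 and from 0 to 1400 bp at Dok3, so NZO/HlLtJ was the highest at neither. Beside these, the 14 Kupffer cell and leukocyte markers summed to 11000 bp active in NZO/HlLtJ and 8400 bp in WSB/EiJ, with 5400 to 10200 bp in the other strains. Of the 14, 10 had no active bin in either of the pair and none was touched by a segment. The part of leukocytes in these starts was not tested.

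At the starts active in WSB/EiJ, Abca4, a retinoid transporter, had 1000 bp active in WSB/EiJ and 0 in all 8 others. Galnt9, a glycosyltransferase of O-linked sugars, had 1400 bp in WSB/EiJ, 1200 to 1600 bp in A/J, C57BL/6J, DBA/2J and NOD/ShiLtJ, and 0 in NZO/HlLtJ and the remaining 3. Lcn2, lipocalin 2, an iron-trapping protein of the acute phase response, had 200 bp in NZO/HlLtJ, 2200 bp in WSB/EiJ and 800 to 2200 bp in the other 7, so NZO/HlLtJ was the lowest of the 9. Acot11, an acyl-CoA thioesterase, had 1200 bp in NZO/HlLtJ and 2000 bp in WSB/EiJ, and its segment only reached the edge of the window. Of the 17 genes, 9 are predicted genes whose names begin with Gm, and at 7 of these the segment was mostly in state 3. In the other direction 1 of 23 was such a gene, with 0 in state 3. The share of such names among all genes with a start was not computed. At Gm1604b, Gm41844 and Gm52787 the segment did not cover the start. NZO/HlLtJ itself had 800 bp active in the start windows of Gm41844 and Gm52787. Gm45988 and Gm46353 had 2200 bp active in WSB/EiJ, 0 in NZO/HlLtJ and at most 400 bp in any other strain.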

How the data were processed

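The libraries are ChIP-seq of H3K4me1, H3K4me3, H3K27ac and H3K27me3 and an input, from hepatocytes of 3 mice per strain. The deposited values are other than measurements: each file of the authors lists, for 1 strain, intervals of the genome with a state number from 1 to 14. The submitters' processing notes name mm10, FastQC 0.11.5 and MACS 1.4.2, with no role or order. The aligner, the segmentation tool, the sequencing depth and the marks behind each state are not given in the sources used here. A segmentation combines the mice of a strain, so neither replicates nor tests exist, and a table of all strains that repeats the same states was not used.

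Intervals were cut into bins of 200 bp on chromosomes 1 to 19. Segments are runs of 5 or more bins (1000 bp) in state 1, 2 or 3 in one strain and 13 or 14 in the other. Genes are the 20665 autosomal protein-coding spans of RefSeq (GRCm38.p6, the assembly known as mm10), without exons, so that exons, introns and untranslated regions were not told apart. Gene starts and strands come from the RefSeq promoter table, which held 16457 of them. A gene is touched where a segment overlaps its span or 1 kb to either side, and its active length is the sum of states 1 to 3 over that window.

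The genes named are the listed metabolic genes touched, the genes touched by the 8 longest segments in each direction, and the 8 genes in no list with the most switched bp. Listed metabolic genes with a switched start were also to be named. There were none among those with a start in the promoter table. The rule for printing promoters therefore gave none, so those printed were chosen after their values were seen. Members and lists were chosen with earlier results of these data known, and the active length is a measure added once the segments had been examined. The scripts, tested on simulated data, ran under Python 3.11.15 with pandas 2.3.3 and numpy 2.4.6, exact intervals came from scipy 1.17.1, and figures from matplotlib 3.10.9. The alternatives tried were other bin sizes, minimum lengths, state groups, gene windows and sets of strains.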

Additional observations from a re-analysis of the deposited data

Results flagged for a closer look

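A value of NZO/HlLtJ or WSB/EiJ was singled out where it stood apart from the other 8 strains, its gap to the nearest, as a share of the whole range, exceeding Dixon's critical value for 9 values. Of 37 sets of 9 values examined, 7 had such a value in any strain, and 6 of these values belonged to the pair. Chance flags about 1 in 20 sets of replicates, but the strains are not replicates of 1 group, and most sets are genes named because the pair differed there. That choice favours a value of the pair standing apart, so the rate does not apply to them.

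At Mup20 the active length of 5200 bp in WSB/EiJ stood below all others, of which the nearest had 17200 bp. At Zfp704 WSB/EiJ had 58400 bp and the next strain 28000 bp. At Sult2a7 NZO/HlLtJ had 13400 bp and the next strain 3400 bp. At Cideb NZO/HlLtJ had 5600 bp and the next strain 4800 bp. Mup20 and Sult2a7 have near-identical copies.

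The X chromosome, outside the autosomal comparison, gave the other 2 values. State 13 covered 74.7% of the X chromosome in WSB/EiJ, while NZO/HlLtJ had 88.5% and the other 7 strains 84.3% to 89.0%. State 14 covered 21.8% in WSB/EiJ, 8.05% in NZO/HlLtJ and 7.51% to 12.5% in the others. On the autosomes WSB/EiJ had the most state 13 of the 9 strains, 13.1%.

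The X chromosome also held 4 segments active in WSB/EiJ and silent in NZO/HlLtJ, and 0 in the other direction. It is listed because it lies outside the autosomal comparison and is above the 3 that a count of 0 allows, which is no test between the strains. That is 0.234 segments per 10 Mb, against 2.96 on the autosomes. Active states covered 0.149% of the X chromosome in NZO/HlLtJ and 0.294% in WSB/EiJ.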

How the results depend on the processing

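No paired analysis was possible because each strain has 1 segmentation and no test was made. The agreement (kappa 0.634) was 0.362 over bins outside state 14 in at least 1 strain, 0.638 in bins of 1000 bp, 0.706 where a neighbouring bin could match, 0.691 with states 13 and 14 merged and 0.670 with the X chromosome. The counts of segments, 725 active in NZO/HlLtJ and 730 in WSB/EiJ, followed the definitions: 1908 and 1876 from 600 bp, 151 and 130 from 2000 bp, 213 and 138 with states 1 and 3 as active, 35 and 21 with state 13 alone as silent. With state 4 also called active they were 8021 and 12813. The genes touched, 363 and 280, became 31 and 27 within 1 kb of a start (either end of the span where no start was listed), 871 and 643 from 600 bp, 88 and 66 from 2000 bp, and 3461 and 3133 with state 4; within 10 kb of the span the WSB/EiJ count was 430. The shares of segments with most other strains active, 37.1% and 24.9%, ranged from 25.8% to 33.7% and from 19.2% to 22.3% with 1 strain left out, since 4 active strains were still needed. They were 43.9% and 29.2% without CAST/EiJ and PWK/PhJ, where fewer than 4 active strains were enough. They were 54.2% and 38.1% where any active bin counted, and the NZO/HlLtJ share was 43.05% from 2000 bp. Alternatives chosen after seeing the data gave 54 metabolic genes longer in NZO/HlLtJ and 15 in WSB/EiJ with states 1 and 3 alone, and 57 and 34 with states 1 to 4. The ratio of state 1 to state 2 exchanges, 5.54, was 9.31 in bins whose neighbours share their state, and with states 1 and 3 the drug and steroid genes longer in NZO/HlLtJ and in WSB/EiJ were 7 and 7, in place of 4 and 10. In all, 46 of these values moved and 23 did not. For kappa any change in the rounded value counted as moved, so 0.638 did. For counts and ratios a set fold change was needed, and for shares a value outside the exact interval over segments. The tally mixes these rules and is no measure of robustness. The causes were not tested. Depth is unknown, so no limit of detection can be given.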

Other observations

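The lower share of state 13 on the X chromosome of WSB/EiJ was not spread evenly. Between 120 and 130 Mb state 13 covered 12.9% of the bins in WSB/EiJ, 85.8% in NZO/HlLtJ and 66.1% to 86.7% in the other 7 strains, and state 14 covered 85.3% in WSB/EiJ. Between 110 and 120 Mb the shares of state 13 were 55.5% in WSB/EiJ and 94.2% in NZO/HlLtJ, between 20 and 30 Mb 55.9% and 89.5%, and between 30 and 40 Mb 49.2% and 78.5%. Of 171 windows of 1 Mb, 16 had state 13 under 50% in WSB/EiJ and at 50% or more in every other strain. Of these 16, 9 lay between 110 and 130 Mb and 5 between 20 and 40 Mb. In the windows between 40 and 110 Mb WSB/EiJ lay inside the range of the other 7 strains.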
